A study of Mus musculus with 8 samples.

Results

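Midbrain-hindbrain patterning genes are the transcription factors that place and maintain the boundary from which the cerebellum grows. The 10 examined here were En1, En2, Gbx2, Otx2, Pax2, Pax5, Pax8, Lmx1a, Lmx1b and Uncx, out of 21887 protein-coding genes. A peak belonged to a gene if it overlapped the gene or lay within 10 kb of it on mm10, and the measurement was the covered length, the number of base pairs in that window that lay under peaks. The data are 8 peak lists of acetylated histone H3 lysine 9 (H3K9ac), a mark found at active promoters, from whole cerebellum of C57BL/6 mice aged 9 weeks. Of these, 4 libraries came from heterozygous 266Q knock-in mice, which carry 1 Atxn7 allele with a tract labelled as 266 glutamines and serve as a model of spinocerebellar ataxia type 7, and 4 from wild type mice. The series asks how the mark differs between symptomatic knock-in animals and littermates.

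In the embryo Otx2 marks the forebrain and midbrain and Gbx2 the anterior hindbrain, and their border becomes the isthmic organizer, which secretes Fgf8 and Wnt1. Pax2, Pax5 and Pax8 are paired-domain factors switched on at this border, En1 and En2 are the engrailed homeodomain factors they help to maintain, and Lmx1b is a LIM-homeodomain factor needed for the organizer. Lmx1a acts in the roof plate and the rhombic lip, and Uncx is a paired-type homeodomain factor best known from the axial skeleton and also made in neurons of the developing brain. In the postnatal cerebellum En2 stays active in granule cells, Pax2 marks precursors of inhibitory interneurons, and Otx2 is made in the choroid plexus, the epithelium that secretes cerebrospinal fluid.

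The lists stood apart in length in the same way in both genotypes. Knock-in replicates 1 and 2 held 10607 and 11268 peaks, and wild type replicates 1 and 2 held 11409 and 7735, with median widths of 1065 to 1246 bp. Replicates 3 and 4 held 5571 and 1266 peaks (knock-in) or 3249 and 1571 (wild type), with median widths of 132 to 148 bp. Below, replicates 1 and 2 are called the long lists and replicates 3 and 4 the short lists, and values within the long lists are given beside the pooled ones. Each of the 12 granule cell markers had a peak within 10 kb in 3 of the 4 long lists, and 11 in the other. Purkinje cell markers had one at 3, 5, 3 and 4 of 10 genes in the long lists (knock-in first) and inhibitory interneuron markers at 1, 1, 2 and 2 of 7, while 50.2%, 48.4%, 45.2% and 38.2% of all protein-coding genes had one. Pcp2, a defining Purkinje cell gene, was at 0 in all 8 libraries. Liver and thyroid markers had a peak at 0 of 4 genes in every library, and forebrain markers at 1 or 2 of 9 in the long lists. In whole tissue, a mark on fewer cells and a weaker mark per cell cannot be told apart.

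H3K9ac was concentrated at 3 of the 10 genes. Uncx had a peak in 7 libraries, En2 in 6 and En1 in 5, and these 3 genes took 48 of the 59 peaks counted. Lmx1a and Lmx1b had a peak in 3 libraries each, Otx2 and Pax5 in 2, Pax2 in 1, and Gbx2 and Pax8 in none. Among all protein-coding genes, 2.55% were marked in 7 or more libraries, 8.50% in 6 or more and 19.2% in 5 or more. The median number of libraries was 2.5 over the 10 genes and 2 over all genes.

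The promoters of these genes are shown first, because most CG-rich promoters carried the mark in the long lists. Most CG-rich windows found for this family did not, and none was available for En2. The sequences are RefSeq promoter windows on GRCm38.p6 (mm10), 250 bases before to 50 after the transcription start, and the capitals mark CG dinucleotides. The first pair, Uncx (chr5:139543648-139543947, plus strand) and En1 (chr1:120602237-120602536, plus strand), overlapped peaks. The second pair, Gbx2 (chr1:89931127-89931426, minus strand) and Lmx1b (chr2:33641049-33641348, minus strand), overlapped none in any library.
Uncx: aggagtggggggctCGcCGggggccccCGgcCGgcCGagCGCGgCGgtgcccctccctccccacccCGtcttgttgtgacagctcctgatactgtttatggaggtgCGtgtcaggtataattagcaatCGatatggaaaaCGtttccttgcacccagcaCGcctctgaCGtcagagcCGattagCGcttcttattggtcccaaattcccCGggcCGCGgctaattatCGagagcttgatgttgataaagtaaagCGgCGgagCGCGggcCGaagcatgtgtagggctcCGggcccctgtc
En1: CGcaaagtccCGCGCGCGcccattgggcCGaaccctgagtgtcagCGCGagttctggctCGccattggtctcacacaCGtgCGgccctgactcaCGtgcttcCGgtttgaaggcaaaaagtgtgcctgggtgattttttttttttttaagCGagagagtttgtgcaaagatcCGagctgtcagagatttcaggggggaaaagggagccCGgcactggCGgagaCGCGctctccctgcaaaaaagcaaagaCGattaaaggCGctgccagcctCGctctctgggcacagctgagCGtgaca
Gbx2: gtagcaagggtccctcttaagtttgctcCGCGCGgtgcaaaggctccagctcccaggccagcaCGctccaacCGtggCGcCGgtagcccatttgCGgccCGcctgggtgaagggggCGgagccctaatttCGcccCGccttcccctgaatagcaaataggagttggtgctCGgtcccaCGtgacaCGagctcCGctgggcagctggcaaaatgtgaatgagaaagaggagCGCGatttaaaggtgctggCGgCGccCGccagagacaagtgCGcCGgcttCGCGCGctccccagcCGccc
Lmx1b: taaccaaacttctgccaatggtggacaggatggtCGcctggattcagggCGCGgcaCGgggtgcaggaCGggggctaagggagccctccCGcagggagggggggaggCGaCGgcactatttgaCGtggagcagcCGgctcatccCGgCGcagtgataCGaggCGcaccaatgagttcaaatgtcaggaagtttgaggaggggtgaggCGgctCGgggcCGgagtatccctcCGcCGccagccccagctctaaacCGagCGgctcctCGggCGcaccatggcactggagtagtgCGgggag

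Promoter windows with and without a peak overlapped in their CG count. The Uncx promoter held 26 CG dinucleotides and that of En1 23, while Gbx2 held 27 and Lmx1b 24 with no peak over the window. The promoter table gave 14 windows for 9 of the genes (none for En2), with a median of 19.5 CG dinucleotides against 7 over 32851 promoters. En2, whose lower end lay under peaks in every long list, is thus missing from these counts. Of the 7 windows with at least 23 CG dinucleotides, a minimum set after seeing the En1 value, 2 overlapped a peak in some library. Over the 7071 promoters with at least 23, the share that overlapped a peak was 77.3% and 72.2% in the knock-in long lists, against 65.6% and 58.7% in those of the wild type. Of the 7 windows, 2, 1, 1 and 2 overlapped one in the same lists, namely Uncx and, where 2 are given, En1. The other 5 CG-rich windows, those of Gbx2, Lmx1b and Pax5 and 2 of the 3 of Pax2, overlapped none.

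**Figure D1:**
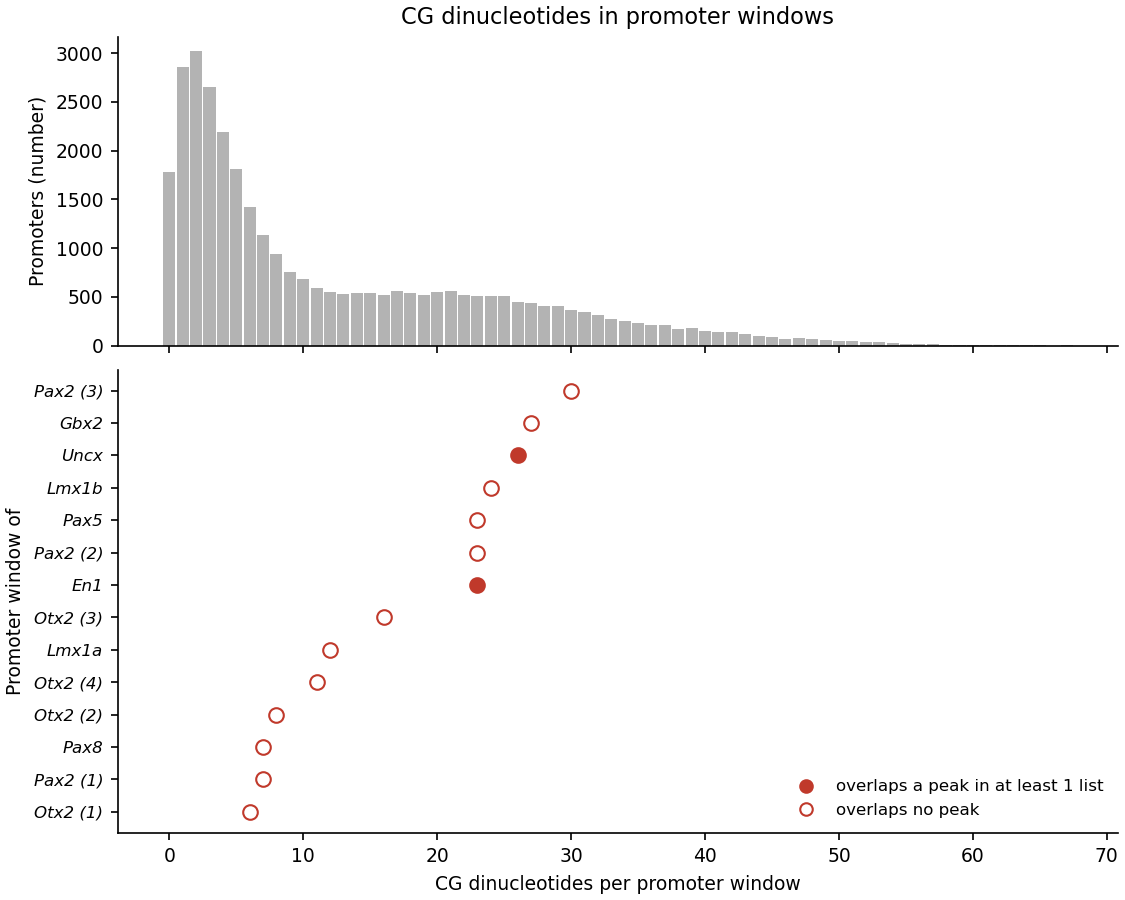
Top, number of promoter windows (y axis) by their count of CG dinucleotides (x axis) over 32851 promoters. Bottom, the 14 windows of the patterning genes on the same x axis, filled where a peak of at least 1 list overlapped the window and open where none did, with the number in parentheses telling windows of 1 gene apart; the filled points, Uncx and En1, lie among open points of similar CG count.

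The Uncx promoter lay wholly under peaks in the long lists. All 300 bases were covered in each of the 4 long lists, 28 bases in knock-in replicate 3 and 20 in wild type replicate 3. At En1 the peaks of the long lists began 12 to 248 bp inside the gene, so the window was touched only where it runs past the start: 23 bases of its window were covered in knock-in replicate 1, 38 in wild type replicate 2, and 0 in the other 6 libraries. The letters TAATTA, the core bound by many homeodomain factors and the same on both strands, occurred in 3 of the 14 windows (Uncx and 2 of Otx2) and in 5.29% of all promoters. The letters GGATTA or their reverse complement, a core bound by Otx factors, occurred in 1 of the 14 (1 of the Otx2 windows) and in 7.06% of all promoters.

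Uncx, on chromosome 5 (139543865 to 139548179), had the longest covered length of the family. In knock-in replicates 1 to 4 peaks covered 9767, 10067, 829 and 0 bp of its window, and in wild type replicates 1 to 4 they covered 10138, 7877, 577 and 116 bp. The long lists of both genotypes were high, the short lists low, and the genotypes overlapped. In the long lists this was 32.4% to 41.7% of the window, and Uncx ranked between place 19 and place 30 of all protein-coding genes by covered length. Most or all of this short gene lay under peaks: 71.2% to 100% of the gene itself was covered in the long lists.

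The Uncx peaks lay over the gene and both of its flanks. In wild type replicate 1 they were 1 peak of 10138 bp (chr5:139542145-139552282), the fifth widest of 11409 peaks. The other long lists held 4, 5 and 4 separate peaks in the window (knock-in first). Their widest gap inside the gene lay at 1375 to 1520 bp from the gene start in knock-in replicate 1. It lay at 1333 to 2306 bp in knock-in replicate 2 and 1271 to 2440 bp in wild type replicate 2. The peak on the promoter side of this gap was 2545 to 2894 bp wide. Wild type replicate 2 had a further gap inside the gene at 3961 to 4036 bp. In 2 of the 4 short lists, peaks lay near both gene ends. Knock-in replicate 3 had 3 peaks at 55 to 744 bp and 2 at 3812 to 4192 bp from the gene start, and wild type replicate 3 had 2 at 63 to 503 bp and 1 at 4124 to 4264 bp.

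A stretch of 65 bp just inside Uncx (chr5:139544231-139544295), 366 to 430 bp from the gene start, was covered in all 7 lists with a peak there. All 4 long lists covered 7110 bp in common, and the 995 bp covered in any short list lay wholly within the 11605 bp covered in any long list. The shared share of covered bases (intersection over union) was 79.0% between the knock-in long lists, 77.7% between the wild type long lists, and 68.0% to 78.4% between genotypes. A smaller peak of 1019 and 896 bp in knock-in replicates 1 and 2 lay over the neighbouring non-coding gene 4930500L23Rik. No wild type list covered that place. The knock-in peaks there were at score percentiles 42.4 and 23.6, and their presence was not tested by itself.

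En2 (chromosome 5, 28165696 to 28172190) was the second gene by covered length. Peaks covered 5896, 5972, 1410 and 0 bp in knock-in replicates 1 to 4 and 6043, 6367, 499 and 0 bp in wild type replicates 1 to 4. The long lists lay between 5896 and 6367 bp and the short lists were lower. The genotypes overlapped through the short lists, while in the long lists both knock-in values lay below both wild type values. By covered length En2 ranked 147 and 142 among all genes in the knock-in long lists, and 125 and 40 in those of the wild type. It ranked 7 in knock-in replicate 3 and 108 in wild type replicate 3.

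The strongest acetylation of En2 lay over the lower end of its span, where all 4 long lists shared 2402 bp (chr5:28165636-28168037). The peak over that end was at the 99.5 percentile of score in knock-in replicate 1, 87.9 in knock-in replicate 2 and 99.7 in both wild type long lists. In knock-in replicate 1 it was 4909 bp wide, the 22nd widest of 10607. Below that end, wild type replicate 1 listed a peak of 1164 bp (chr5:28162401-28163564) and wild type replicate 2 one of 1136 bp at nearly the same place, where no knock-in list had one. Their score percentiles were 51.1 and 30.2, and the presence of such single peaks was not tested by itself.

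In the short lists En2 was broken into pieces inside the same domain. Knock-in replicate 3 had 4 peaks between 299 and 1862 bp from the lower gene end, at percentiles 43.7 to 98.2, and wild type replicate 3 had 3 peaks, of which 2 lay inside the gene. All 1610 bp covered in a short list were also covered in all 4 long lists. The most distant peak counted for any of the genes was 1 of 827 bp that began 9614 bp beyond En2 in wild type replicate 1, with 387 bp inside the window, over the non-coding gene Gm42242. The nearest peak left out by the 10 kb limit lay 16211 bp from Lmx1b in wild type replicate 1 and was 1177 bp wide.

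En1, the paralogue of En2, carried 1 compact peak. On chromosome 1 (120602487 to 120607991), peaks covered 1673, 1299, 136 and 0 bp in knock-in replicates 1 to 4 and 1257, 1266, 0 and 0 bp in wild type replicates 1 to 4. The long lists of both genotypes were high. The genotypes overlapped through the short lists, while in the long lists both knock-in values lay above both wild type values. In every list with a peak it lay within the first 1699 bp of the gene, and all 4 long lists shared 1030 bp (chr1:120602735-120603764). The 136 bp peak of knock-in replicate 3 lay within that stretch. Its score percentile was 49.8, 78.9 and 10.5 in the first 3 knock-in lists, and the wild type long lists had it at 77.7 and 49.6. Its covered length was below that of En2 in each of the 4 long lists.

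**Figure D2:**
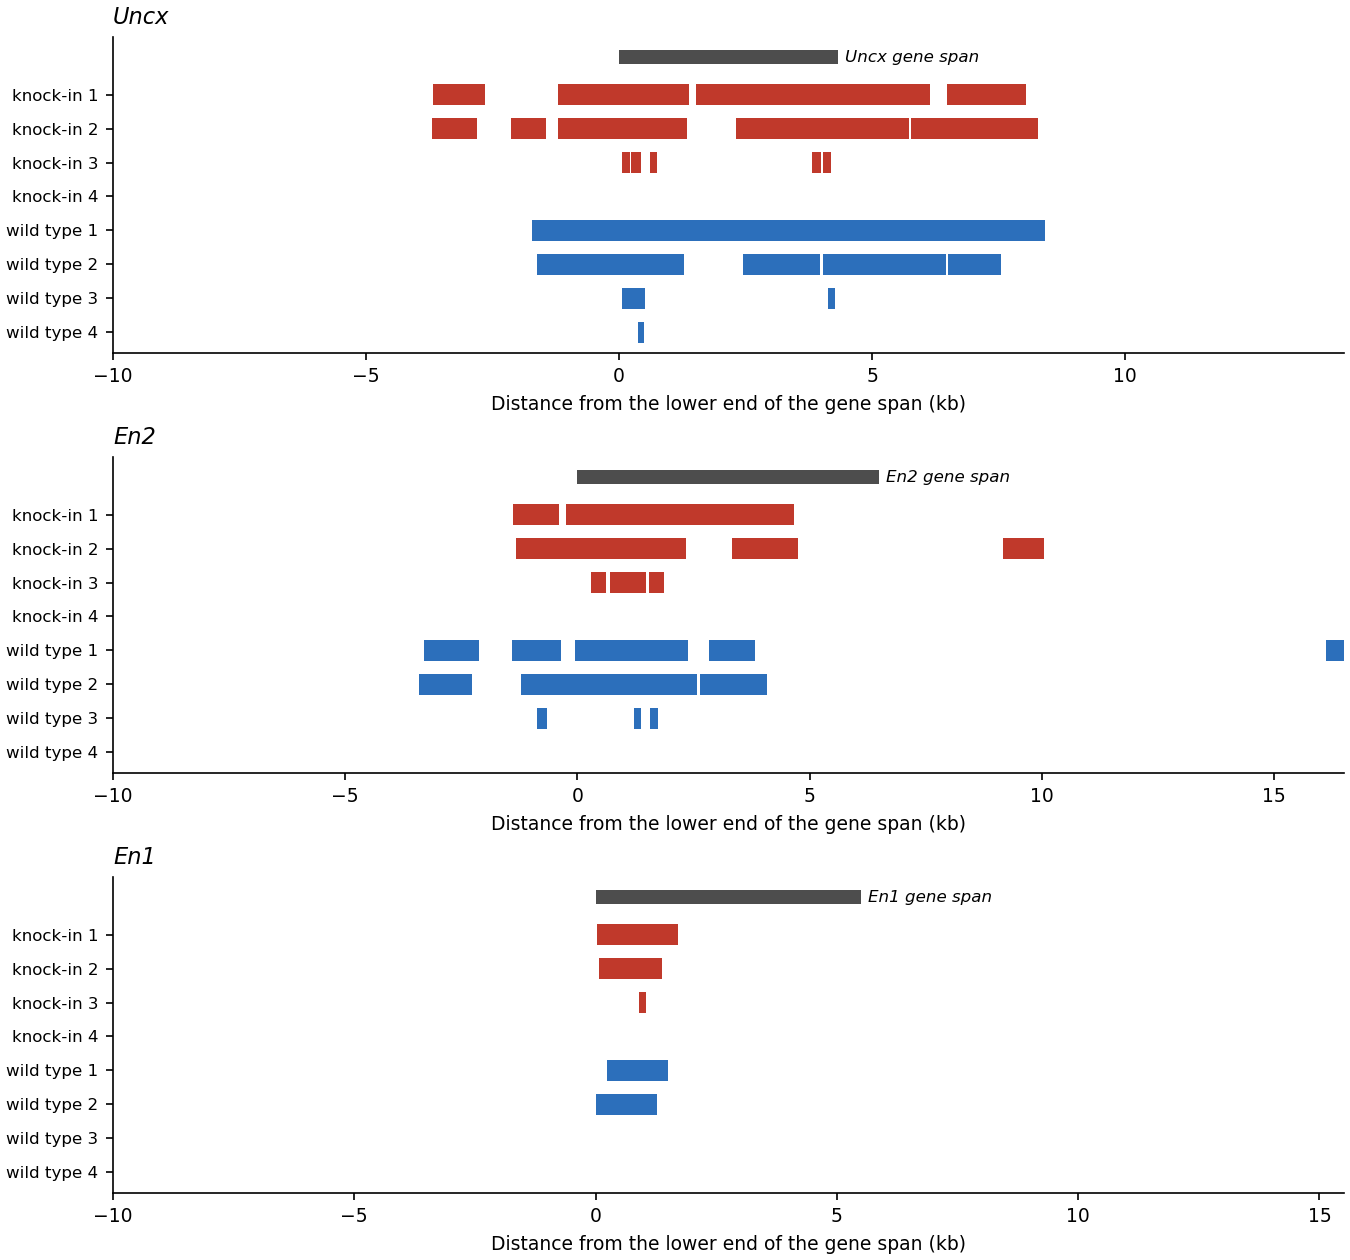
Peaks of each list (bars; red knock-in, blue wild type, rows are libraries) around Uncx, En2 and En1, with distance in kb from the lower end of the gene span on the x axis, cut off 10 kb beyond each gene end, and the gene span as a dark bar. The peaks of Uncx reach past both gene ends in the 4 long lists, with gaps inside the gene in all but wild type replicate 1. The domain of En2 covers its lower end, and En1 has 1 compact peak inside the gene.

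The remaining genes had scattered weak peaks or none. Their 11 peaks were at score percentiles 2.36 to 46.7, all in the lower part of their lists, and none overlapped a promoter window of its gene. Lmx1b (chromosome 2, 33560965 to 33641208) had overlapping peaks inside the gene in knock-in replicates 1 (chr2:33616013-33616769) and 2 (chr2:33615691-33616953). Its covered length was 757, 1263, 0 and 0 bp in knock-in and 988, 0, 0 and 0 bp in wild type replicates 1 to 4. The wild type peak lay elsewhere, 6572 bp beyond the gene over the non-coding gene Gm39789.

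Lmx1a (chromosome 1, 167688230 to 167848741) had covered lengths of 1286, 0, 135 and 0 bp in knock-in and 0, 0, 123 and 0 bp in wild type replicates 1 to 4, at 3 different places. Pax5 (chromosome 4, 44524748 to 44710694) had 1256, 0, 0 and 0 bp in knock-in and 1111, 0, 0 and 0 bp in wild type, also at different places inside this long gene. Otx2 (chromosome 14, 48656781 to 48667644) had 0 bp in all 4 knock-in libraries and 0, 845, 0 and 147 bp in wild type replicates 1 to 4. The 845 bp peak of Otx2 was at the 2.36 percentile of its list and the 147 bp peak lay 7278 bp from the gene. Pax2 (chromosome 19, 44746601 to 44838269) had 1 peak of 77 bp, in knock-in replicate 3.

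Gbx2 (chromosome 1, 89927962 to 89931176) and Pax8 (chromosome 2, 24420551 to 24475599) had 0 bp in all 8 libraries. The nearest peak to Gbx2 lay 36.6 and 36.9 kb away in the knock-in long lists, and 37.1 and 346.1 kb away in those of the wild type. For Pax8 it lay 286.3 and 158.5 kb away in the knock-in long lists, against 286.8 and 287 kb in those of the wild type. A gene without a listed peak may still carry acetylation below the threshold of the peak caller.

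**Figure D3:**
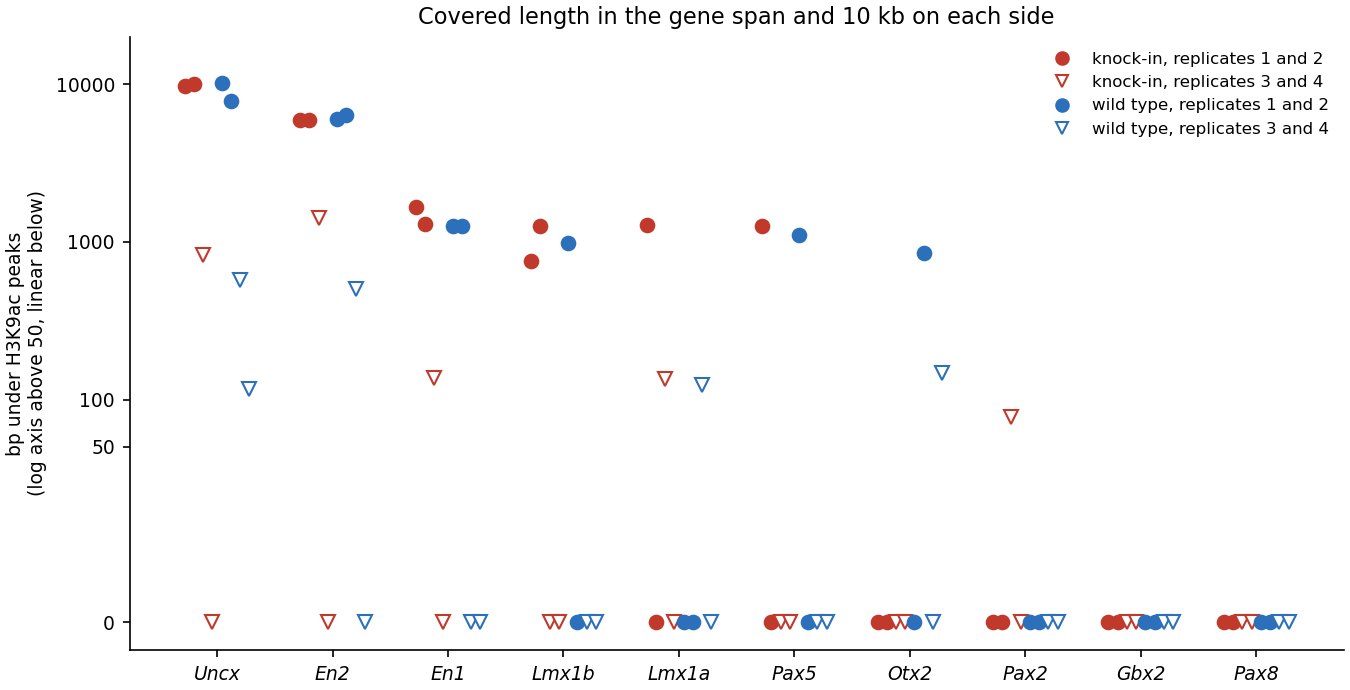
Base pairs under H3K9ac peaks (y axis, logarithmic above 50 bp and linear below) in the window of each of the 10 genes (x axis), 1 point per library, red knock-in and blue wild type, filled circles for replicates 1 and 2 and open triangles for replicates 3 and 4. Uncx, En2 and En1 have a peak in all 4 long lists, at 1257 bp or more. The genotypes overlap at every gene that has a peak, at En2 and En1 only through replicates 3 and 4, and at Otx2 and Pax2 through libraries at 0.

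**Figure D4:**
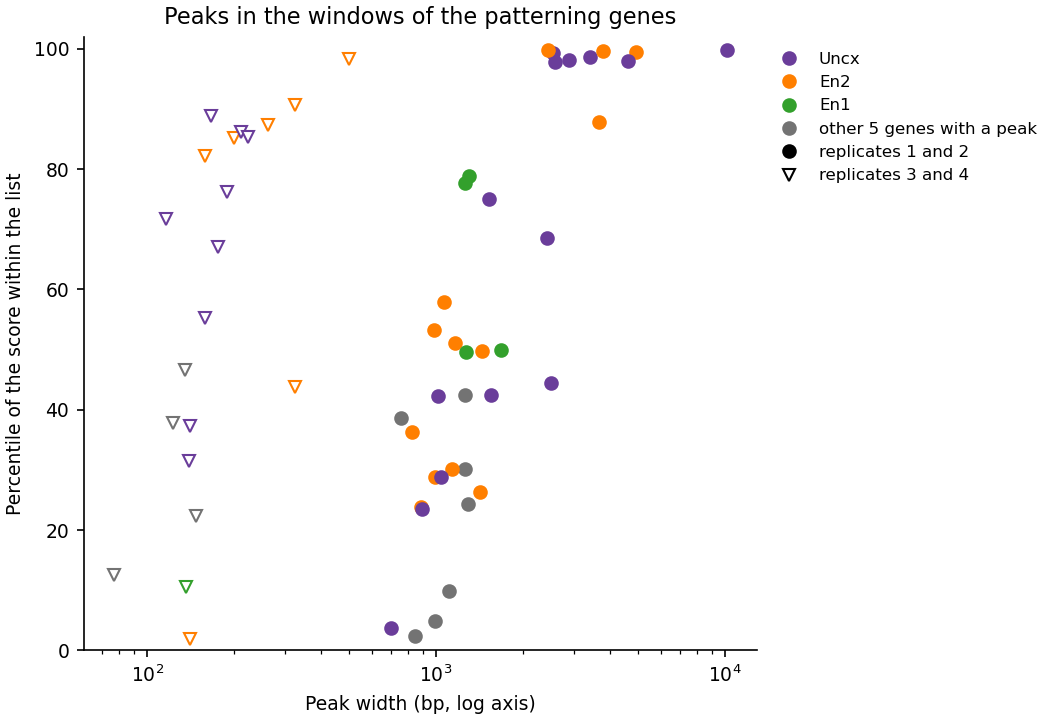
Width in bp (x axis, logarithmic) and percentile of the score within its list (y axis) of the 59 peaks, coloured by gene, filled circles for replicates 1 and 2 and open triangles for replicates 3 and 4. The peaks of the 5 grey genes all lie at or below the 46.7 percentile, while the widest peaks of Uncx and En2 lie near the top of the long lists.

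No difference between genotypes was called at any of these genes. For covered length, 0 of the 8 genes with a peak passed the two-sided exact permutation test with Benjamini-Hochberg adjustment, and 0 of 13147 genes (0%) passed, with 2 at an unadjusted p under 0.05. With 4 libraries against 4 the exact p cannot fall below 0.0286, and 57.1% of all genes would have to reach it for any to pass, so this test could hardly call a gene. Covered lengths of the genotypes did not overlap at 0 of the 8, and at 2 of the 13147 (0.0152%). The difference between knock-in and wild type means was above 0 for 7 of the 8 and below 0 for 1, against 10054 above and 3093 below over all genes with a peak. Its median was 119 bp over the 8 and 181 bp over all.

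At Uncx the knock-in mean was 5166 ± 5498 bp (SD, n = 4) and the wild type mean 4677 ± 5088 bp (SD, n = 4), for an exact p of 0.8. Within the long lists its means were 9917 and 9007.5 bp, and within the short lists 414.5 and 346.5 bp. At En2 the knock-in mean was 3320 ± 3074 bp (SD, n = 4) and the wild type mean 3227 ± 3447 bp (SD, n = 4), for an exact p of 1. Within the long lists En2 was lower in knock-in, at 5934 against 6205 bp. At En1 the means were 777 ± 835 and 631 ± 728 bp (SD, n = 4 each), for an exact p of 0.571, and 1486 against 1261.5 bp within the long lists. The exact p of the other 5 genes with a peak was 0.429 to 1. The pooled differences at Uncx, En2 and En1 were smaller than the spread between the 4 libraries of 1 genotype. That spread holds the gap between long and short lists. Within the long lists the genotypes overlapped at Uncx but not at En2 or En1. Both knock-in values were lower at En2 and higher at En1, each with an exact permutation p of 0.333. With 2 long lists against 2 no exact p can fall below 0.333. The sign of the pooled differences turned with single libraries. Leaving out knock-in replicate 1 or 2 or wild type replicate 3 or 4 gave a lower mean in knock-in for Uncx, En2 and En1. Uncx was then at -1045, -1145, -878 and -1032 bp in that order. Each of these omissions leaves knock-in with a smaller share of long lists than wild type. A lower knock-in mean is thus built in where peaks lie mostly in the long lists.

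For detection, the number of libraries with a peak was higher in knock-in for En1, Pax2, Lmx1a and Lmx1b, higher in wild type for Otx2 and Uncx, and equal for En2 and Pax5. Over the 13046 genes tested, 44.6% leaned to knock-in and 15.1% to wild type by this number. The conditional exact test, which allows for list length, called 0 of the 8 and 0 of the 13046 (0%) after Benjamini-Hochberg adjustment, with 88 genes at an unadjusted p under 0.05 and 0 called by Fisher's exact test. For Otx2, seen in 2 libraries of the wild type alone, the test gave an unadjusted exact p of 0.0513, which became 1 after adjustment. The unadjusted exact p of Otx2 was 0.00246 without wild type replicate 1 and 0.493 with lists of equal length, and the adjusted value was 1 in both. The exact p of the other 7 was 1. The choroid plexus markers beside it gave 3 of 9 genes with a peak in any library, with summed covered lengths of 118 to 2485 bp over the knock-in and 0 to 744 bp over the wild type libraries. Ttr, the transthyretin gene that defines this epithelium, was at 0 in all 8, and the part of the choroid plexus in the Otx2 peaks was not tested.

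Knock-in replicates 1 to 4 had a peak at 6, 4, 5 and 0 of the 10 genes, where 50.2%, 48.4%, 18.7% and 3.23% of all genes had one. Wild type replicates 1 to 4 had a peak at 5, 4, 3 and 2 of the 10, where 45.2%, 38.2%, 11.0% and 4.46% of all genes did. Knock-in libraries averaged 3.75 ± 2.63 genes and wild type libraries 3.5 ± 1.29 (SD, n = 4 each). In knock-in replicate 1 Uncx and En2 supplied 9767 and 5896 of the 20635 bp covered over the 10 genes together.

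Of the signals that the isthmic organizer sends and their feedback regulators, 18 of 23 genes had a peak in some library, 8 of them in more libraries of the knock-in and 4 in more of the wild type, and 0 passed either test. In the long lists 14, 15, 11 and 12 of the 23 had one. Over all protein-coding genes, 60.1% had a peak in some library. Of the genes tested, 44.6% leaned to knock-in and 15.1% to wild type by number of libraries. Fgfr1, the FGF receptor, was in 3 libraries of each genotype, Etv1, an FGF-induced factor also typical of granule cells, in 3 knock-in and 2 wild type, and Spry2, an FGF feedback inhibitor, in 2 and 3. Wnt1, Wnt5a, Sp5, Sp8 and Lef1 were at 0 in all 8 libraries.

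Of 13 partners and corepressors of engrailed and Pax factors, 11, 11, 12 and 11 were marked in the long lists (knock-in first), and 0 passed either test. Pbx2, a homeodomain cofactor, was marked in 7 libraries, with 5718 and 8414 bp in the knock-in and 7580 and 5951 bp in the wild type long lists. Ssbp3, which stabilises the LIM-homeodomain complex, was also in 7, and Tle4, a Groucho corepressor, in 3 and 3. Ldb2 was at 0 in all libraries.

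Among 19 paralogues outside the family, 10, 7, 6 and 4 had a peak in the long lists in the same order. By number of libraries 9 leaned to knock-in and 1 to wild type, against 44.6% and 15.1% of all genes tested. Of the 19, 0 passed either test. Pax6, the Pax gene of granule cells, covered 15620 and 14559 bp in the knock-in and 12842 and 8258 bp in the wild type long lists. It thus exceeded every one of the 10 genes in each long list, while Pax1, Pax4 and Pax9 were at 0 in all 8. Lhx1, a LIM-homeodomain factor of Purkinje cells, was in 2 libraries of each genotype with 3559 to 6787 bp, and Irx3 in 2 of each with 1297 to 2444 bp. Otx1 and Crx, the paralogues of Otx2, were at 0 in all 8.

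Markers of other cells gave fewer peaks than those of granule cells. Markers of unipolar brush cells, which descend from the rhombic lip, had a peak at 5, 5, 4 and 4 of 6 genes in the long lists, among them Plcb4 and Calb2, which other cerebellar neurons also express. Dorsal midbrain markers had 2, 1, 2 and 1 of 6, led by Barhl2. Dopaminergic neuron markers had 2, 3, 2 and 2 of 7, among them Nr4a2, while Th, Slc6a3, Foxa1 and Foxa2 were at 0 in all 8. The list of Bergmann glia and astrocytes had 3, 3, 2 and 1 of 7, with Gdf10 first, oligodendrocytes 3, 2, 1 and 0 of 8, with Mbp first, and microglia 1, 2, 1 and 1 of 5, with Aif1 first. Choroid plexus markers had 1, 2, 2 and 0 of 9, led by Kcne2, meninges and vessels 0, 0, 1 and 0 of 6, namely Flt1, and hindbrain Hox genes 0 of 7 in the long lists.

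Genes most alike in covered length over the 8 libraries were also listed. For Uncx they were Pagr1a and Maz, both on chromosome 7, with mean absolute differences of 340.0 and 395 bp per library, and Prrt2, next to Maz, tied with it. For En2 they were Ptch1, the hedgehog receptor, and Klf9, at 280 and 305 bp. For En1 they were B3galnt1 and Prpf4b at 26.6 and 31.9 bp, and for Lmx1b Kcnq5 and Bak1 at 17.0 and 23.1 bp, with Ggnbp1, which overlaps Bak1, tied with it. For Lmx1a, 7 overlapping genes of the Ugt1a cluster on chromosome 1 tied at 19.9 bp, since their windows hold the same peaks.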

How the data were processed

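H3K9ac ChIP-seq peak lists of 8 cerebellar libraries were used, 4 per genotype, grouped by sample title. Bowtie2 and mm10 are named in the submitters' processing notes. Peaks were called with MACS in Galaxy, per the file headers. No source used here gives the MACS version, its settings or an input control. The deposited score is the authors' own value per peak, on an unstated scale with a minimum of 50, and served only to rank peaks within a list. The other values, peak starts and ends in bp, are as the authors deposited them. Of 52676 peaks, 15 starts below 0 were set to 0. Lists hold no reads, so depth is unknown, and covered length also grows with how much a library called.

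Genes came from a RefSeq table of GRCm38.p6, and the 10 patterning genes and all listed genes matched. It gives gene ends without exons, so exon and intron are not stated. Promoters (250 bases before to 50 after a start) came from RefSeq too. Per gene, covered length was tested by exact two-sided permutation of the genotypes (70 assignments), and detection by a conditional exact test given library odds from a Rasch model. Both were adjusted by Benjamini-Hochberg over all genes tested, at 0.05, with Python 3.11.15, numpy 2.4.6 and scipy 1.17.1, and tested on simulated data. Nothing in the labels ties a replicate to its own animal, and the p-values then reflect only the spread of these libraries. Covered lengths of libraries with the same replicate number deviated together (r = 0.623, 0.543, 0.857 and 0.889 for numbers 1 to 4), as did those of other numbers within the long or the short lists (0.569 to 0.884). Genes and lists were chosen with earlier results of these data known. All 10 genes are named, up to 3 per list by number of libraries and then covered length, and 2 most alike for genes in at least 3 libraries. Values of some listed genes are not reported here. The alternatives were other windows, score thresholds, scales, overlaps and tests, the replicate block, and leaving out libraries.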

Additional observations from a re-analysis of the deposited data

Results flagged for a closer look

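Covered length was unevenly spread in 6 of the 14 genotype groups of 4 libraries that had a peak. In each, the highest library stood so far from the others that its gap to the next, divided by the range, exceeded Dixon's 95% value of 0.83. For normally distributed values chance gives this in about 1 in 20 groups, but that rate does not apply where libraries are at 0. In 5 of the 6 the other 3 libraries were at 0, so any single listed peak exceeds the value by construction, and the number of such groups is no excess over chance: Pax2 in knock-in replicate 3 (77 bp), Pax5 in knock-in replicate 1 (1256 bp) and wild type replicate 1 (1111 bp), Lmx1a in wild type replicate 3 (123 bp) and Lmx1b in wild type replicate 1 (988 bp). Lmx1a in knock-in replicate 1 (1286 bp) stood above 1 library at 135 bp and a pair at 0.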

How the results depend on the processing

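The tests called 0 genes under each of the 37 alternatives run for the 2 counts, replicate block included, which changed no call and cannot give an exact permutation p below 0.125. None of the alternatives brought any of the 10 genes past the threshold, though most designs here could hardly do so. Of 370 values recomputed for single genes, 190 kept their direction, 103 stayed at 0, 47 fell to 0 and 9 left 0, and 21 differences in covered length (knock-in minus wild type) changed sign. With the higher-scoring part of each list Uncx gave -918 bp, and with lists of equal length (1266 peaks) Uncx gave -64 bp and En2 -148.5 bp. As a share of the list, Uncx gave -190 bp per Mb, and within the long lists En2 gave -271 bp. Leaving out 1 library gave -1145 to 2309 bp for Uncx, -983.5 to 1199 bp for En2, -152 to 405 bp for En1 and -278 to 314 bp for Pax5. Each such omission also changes the share of long lists in its genotype. The short lists limit all pooled values, since 4 of the 8 libraries held few bases.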
